A study of Homo sapiens with 2 samples.

Results

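The genes of the retinoblastoma (RB) pocket proteins and of the E2F transcription factors were examined in HEK293T cells after a heat shock. The 10 genes were chosen by family, with earlier results of these data known, and matched by symbol to Ensembl identifiers, and all 10 were found among the 57736 genes listed in each library. They were 3 pocket protein genes (RB1, RBL1 and RBL2), 3 activator E2F genes (E2F1, E2F2 and E2F3), 2 canonical repressor E2F genes (E2F4 and E2F5) and 2 atypical repressor E2F genes (E2F7 and E2F8). HEK293T is a human embryonic kidney line, given as wild type in the labels, that was made with adenovirus DNA and carries the SV40 large T antigen. By the sample labels, all cells were held for 20 min at 43 °C and then for 6 h at 37 °C. The paper describes a longer heat step, stated for an experiment with a shorter recovery, so the heating time here rests on the labels. Poly(A)+ RNA of 2 separately lysed replicates was sequenced. Untreated cells were not analysed here, so no value below is a change with heat shock, and the comparisons are between genes and between the replicates.

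The pocket proteins bind E2F factors and, in resting cells and early in the cell cycle, keep them from switching on the genes of DNA replication. Phosphorylation by cyclin-dependent kinases releases the E2F factors, and the viral proteins that HEK293T cells carry, E1A and large T, bind the pocket proteins directly. E2F1, E2F2 and E2F3 bind mainly RB1 and activate transcription when free, E2F4 and E2F5 work mostly with RBL1 (p107) and RBL2 (p130), and E2F7 and E2F8 repress without a pocket protein.

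Several of these genes carry the DNA letters that E2F factors are known to bind in their own promoters. The windows from 250 bases before to 50 bases after the gene start were taken from RefSeq (GRCh38.p14), where 8 of the 10 genes were matched, E2F5 and E2F8 not. The motifs TTTCGCGC and TTTGGCGC were searched on both strands. One or both were found in 3 of the 8 windows, those of RBL1, E2F1 and E2F2, and in 1.18% of the 27305 windows of all genes. Among the E2F target genes listed below, 9 of 20 windows held a motif. The matches are shown because they are the letters through which E2F factors reach their targets, with the motif in capitals and each sequence read along the gene, on the minus strand. In RBL1 the first motif began 26 bases before the gene start, in E2F1 20 bases and in E2F2 42 bases. The windows of RB1, RBL2, E2F3, E2F4 and E2F7 held neither motif, which says only that these letters are not in them. Binding was not measured.
RBL1, chr20:37096000-37096029: gcagatTTTCGCGCgcTTTGGCGCaggtgg
E2F1, chr20:33686392-33686411: aaaggaTTTGGCGCgtaaaa
E2F2, chr1:23531262-23531281: acgacgTTTGGCGCtaaaaa

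Replicate 1 held 22529828 expected counts and replicate 2 held 26890199. Levels are given in TPM, a unit that allows for transcript length, so that genes can be compared. A gene was called detected when each library gave it at least 1 TPM, which 26.3% of all listed genes and 63.8% of protein-coding genes reached. All 6 of the matched HEK293 markers were detected, from UCHL1 at 397 and 367 TPM in replicates 1 and 2 to PAX2 at 7.83 and 6.86. Of 6 matched markers of other cell types, 3 were detected, led by COL1A1 at 24.1 and 20.9 TPM. PTPRC, a marker gene of white blood cells, had a count of 0 in both libraries, which allows up to 3 counts. Between the libraries the ratio of a gene fell with its GC content, with a Pearson's r of -0.62 across 13544 genes, which are not independent replicates. GC values of the 10 genes are therefore given beside their ratios.

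All 10 genes were detected, with summed counts of at least 1015 each, so that counting error was small. The order ran from E2F4 at 88.5 ± 1.72 TPM (SD, n = 2) to E2F8 at 8.40 ± 2.12. The median TPM of the 10 genes was 22.6, beside 18.6 for the 12367 protein-coding genes detected. Among those, E2F4 ranked at 1542, RB1 at 7745 and E2F8 at 8873.

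**Figure D1:**
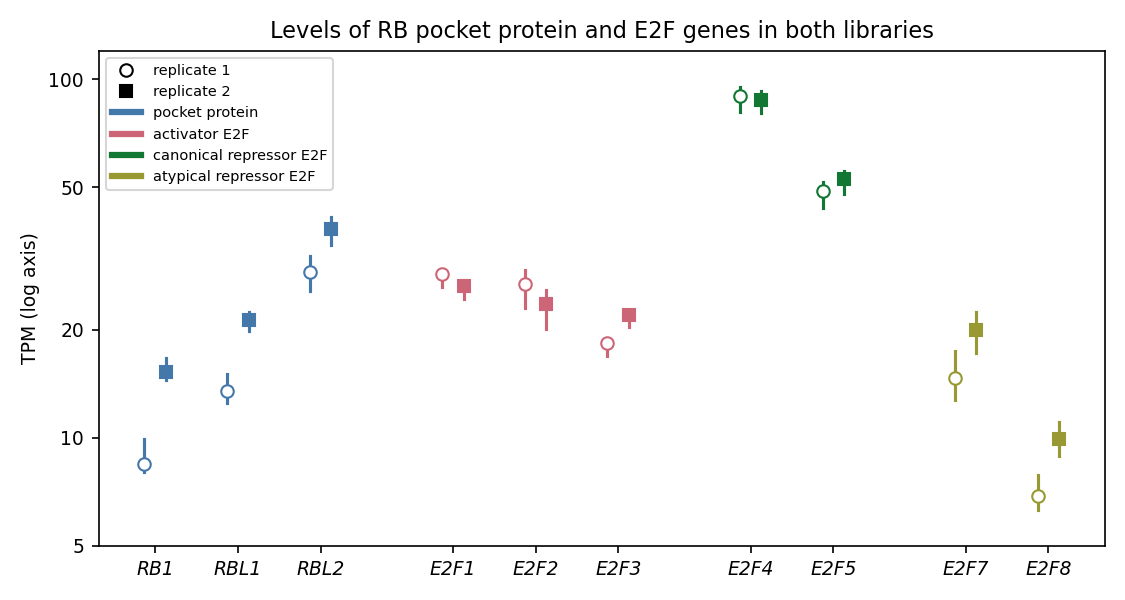
TPM on a log axis for each gene in replicate 1 (open circles) and replicate 2 (filled squares), coloured by class, with the credibility bounds of the quantifier as bars. E2F4 and E2F5 stood highest in both libraries, and the squares of all 3 pocket protein genes lay above their circles.

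Among the pocket proteins, RBL2 had the highest level and RB1 the lowest in both libraries. RB1 (ENSG00000139687; chromosome 13, 48877880 to 49173572 of GRCh37), the tumour suppressor for which the family is named, was at 8.43 TPM in replicate 1 and 15.2 in replicate 2. RBL1 (ENSG00000080839; chromosome 20, 35624752 to 35724400), which encodes p107, was at 13.5 and 21.3 TPM. RBL2 (ENSG00000103479; chromosome 16, 53467889 to 53525560), which encodes p130, was at 29.0 and 38.2 TPM. Each of the 3 genes was higher in replicate 2. Together they came to 50.9 TPM in replicate 1 and 74.7 in replicate 2, of which RBL2 held 54.0% ± 4.10, RBL1 27.5% ± 1.38 and RB1 18.5% ± 2.72 (SD, n = 2).

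The activator E2F genes lay close together. E2F1 (ENSG00000101412; chromosome 20, 32263283 to 32274191), the founding member of the family, was at 28.7 TPM in replicate 1 and 26.5 in replicate 2. E2F2 (ENSG00000007968; chromosome 1, 23832930 to 23857725) was at 26.8 and 23.5 TPM. E2F3 (ENSG00000112242; chromosome 6, 20402110 to 20493945), whose alternative promoters give a long and a short protein, was at 18.4 and 21.9 TPM. E2F1 was the highest and E2F3 the lowest in each library, but the values of E2F1 and E2F2 overlapped between the libraries. Their sum was 73.8 TPM in replicate 1 and 72.0 in replicate 2, so it differed less between the libraries than that of any other class but the canonical repressors.

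In TPM the canonical repressor genes were the highest of the family. Per base of the longest listed transcript, E2F4 was still the highest but E2F5 was ninth of the 10 genes. E2F4 (ENSG00000205250; chromosome 16, 67226058 to 67232821), the main partner of p130 in resting cells, was at 89.8 TPM in replicate 1 and 87.3 in replicate 2. E2F5 (ENSG00000133740; chromosome 8, 86089389 to 86129387) was at 48.8 and 52.7 TPM. E2F4 was above E2F5 by 1.84-fold in replicate 1 and by 1.66-fold in replicate 2, with no overlap between the libraries. The atypical repressor genes were lower in TPM. E2F7 (ENSG00000165891; chromosome 12, 77415028 to 77459349) was at 14.7 and 20.0 TPM, and E2F8 (ENSG00000129173; chromosome 11, 19245610 to 19263167) at 6.90 and 9.90 TPM. Both were higher in replicate 2. Canonical repressors exceeded atypical ones by 6.43-fold in replicate 1 and 4.69-fold in replicate 2 in summed TPM, but by 3.58-fold and 2.75-fold when counts were taken per base of the longest listed transcript, as described below.

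Set against each other by class, repressor E2F genes had 2.17 times the summed TPM of activators in replicate 1 and 2.36 times in replicate 2. Per base of the longest transcript the ratios were 1.31 and 1.27, and in CPM, which is counts scaled to the library total and not per length, 1.11 and 1.10. In TPM, activators held 30.6% ± 1.25 of E2F TPM, canonical repressors 58.6% ± 0.96 and atypical repressors 10.8% ± 2.21 (SD, n = 2). E2F1 held 37.8% ± 1.41 of activator TPM, and E2F4 53.7% ± 3.30 of repressor TPM. All E2F genes together exceeded the pocket protein genes by 4.60-fold in replicate 1 and 3.24-fold in replicate 2. In TPM the activators were 1.45 times the pocket proteins in replicate 1 and 0.964 times in replicate 2. The direction of this comparison in TPM thus did not hold in both libraries. Ratios to the pocket proteins were not taken per base of the longest transcript, where the direction may differ. With 2 libraries no permutation test of such a ratio was possible.

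**Figure D2:**
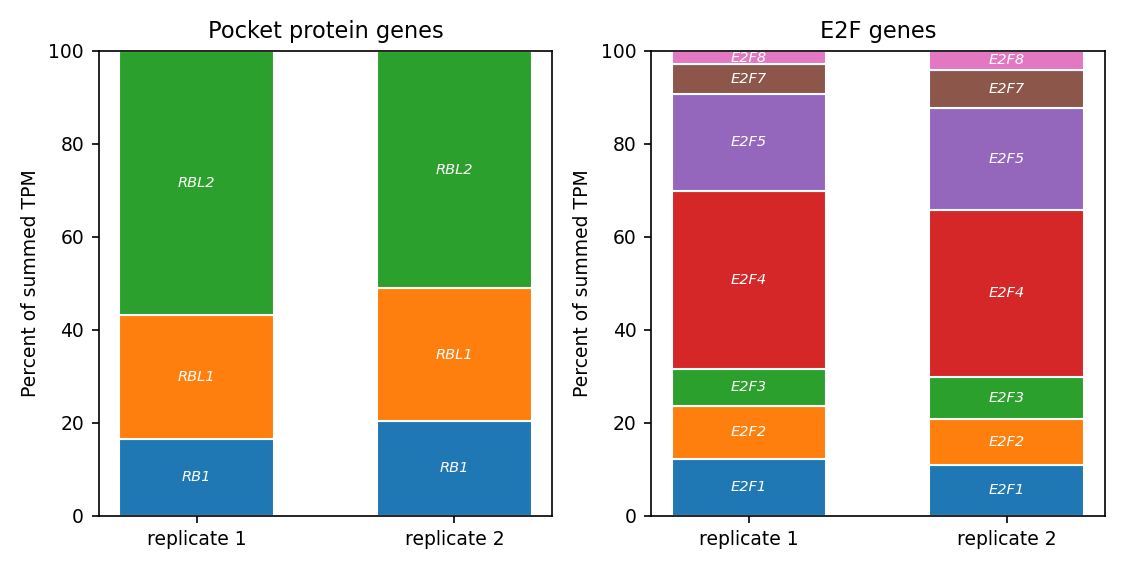
Percent of the summed TPM of the pocket protein genes (left) and of the E2F genes (right) held by each gene in replicates 1 and 2. RBL2 held over 51% of the pocket protein TPM and E2F4 over 36% of the E2F TPM in each library.

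In the order of all 10 genes, E2F4, E2F5 and RBL2 stood at the top, in that order, in each library, with no overlap of values between neighbours. RBL2 and E2F1 did not overlap over the libraries, although in replicate 1 they were at 29.0 and 28.7 TPM, within each other's credibility bounds. E2F1 and E2F2 overlapped, as did E2F3 with RBL1, RBL1 with E2F7, E2F7 with RB1, and RB1 with E2F8. RBL1 and E2F7 were the only neighbours that changed places, with RBL1 eighth in replicate 1 and seventh in replicate 2.

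These orders rest on the transcript length that the quantifier gave each gene, a mean over its transcripts weighted by their estimated levels. For RB1 this length was 4741 bases in replicate 1, 99.4% of its longest listed transcript. For RBL2 it was 2390 bases, or 49.2% of the longest, and for E2F5 870 bases, or 17.3%. Counts were therefore also taken per base of the longest listed transcript, an alternative chosen after seeing the data. The longest lengths came from a GENCODE release that was not that of the authors. There the 1 listed transcript of E2F1 has 2690 bases, beside a given length of 2503. Of the 9 listed transcripts of RBL2, and of the 9 of E2F5, 8 were found in it. The percentages above and the values per base below thus mix annotation releases. E2F4 was still the highest, but E2F5 went from second place to ninth, with 16.0% and 21.3% of the level of E2F4 in replicates 1 and 2 in place of 54.4% and 60.4%. E2F7 then stood above E2F5 in both libraries, at 20.1% and 26.1% of E2F4. E2F1 was then second. The activators then held 43.7% ± 0.51 of the E2F level (SD, n = 2) in place of 30.6%. RBL2 was still the highest pocket protein gene, with 40.8% ± 4.07 (SD, n = 2), and RB1 the lowest, with 28.5% ± 3.53. In replicate 2 RB1 and RBL1 were then nearly level, at 34.6% and 34.7% of E2F4.

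The given length also differed between the libraries for some genes. For E2F7 it was 3948 bases in replicate 1 and 3311 in replicate 2, for E2F8 3320 and 2983, and for E2F4 1495 and 1353. For E2F1, with 1 listed transcript, it was 2503 bases in both. A difference in TPM between the libraries thus includes this change of length, and the tests below were run on counts.

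Identical sequences were counted over 50 bases, the length of the reads. RB1, E2F1, E2F4, E2F7 and E2F8 shared none with any other gene of the reference transcripts. E2F3 shared 0.27% of its sequences with its pseudogene E2F3P1, which was listed at 0 TPM in both libraries. E2F2 shared at most 0.24% with any gene, RBL1 at most 2.73% and RBL2 at most 7.02%. For RBL2 this was with a gene on the opposite strand, with 721 exon bases in common, that the libraries do not list. E2F5 shared 13.7% with RBIS, a protein-coding gene on the opposite strand of the same locus at 81.8 and 63.4 TPM, with which it has 991 exon bases in common. RBL2 had 609 exon bases in common with AKTIP, also on the opposite strand, at 10.2 and 12.8 TPM. Whether counting used strand is not stated in the methods or labels, so reads from these stretches cannot be told apart with certainty. The posterior SD, by which the quantifier marks how surely reads were divided among genes, was at most 0.336% of the count, for E2F5 in replicate 1. Of the genes lying inside the introns of RB1, LPAR6 was at 0.24 and 0.35 TPM.

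The replicates were compared gene by gene by an exact two-sided binomial test on the counts, with Benjamini-Hochberg adjustment over 19714 genes. This compares 2 libraries of the same treatment, not conditions. Of the 10 genes, 8 passed the threshold of 0.05, 5 of them higher in replicate 2 and 3 higher in replicate 1. Over all genes tested 42.5% passed, with 20.6% higher in replicate 2 and 21.9% higher in replicate 1. Among the 7974 genes with summed counts of at least 1000, as all of these have, 72.3% passed. A share of 8 in 10 is thus near that of other genes of this depth. No log2 ratio reached 1, and the median was 0.12, beside -0.0011 over all genes tested.

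RB1 differed most between the libraries. It had 722 counts in replicate 1 and 1492 in replicate 2, a log2 ratio of 0.74 with a counting SE of 0.07 (adjusted p = 5.55e-30 by the exact binomial test). RBL1 followed, with 1004 and 1785 counts and a log2 ratio of 0.53 (adjusted p = 9.93e-20 by the exact test). RBL2 had a log2 ratio of 0.29, with 1237 and 1862 counts (adjusted p = 3.24e-07 by the exact test). The 3 genes have transcripts of 41.2% to 43.5% GC, on the side of GC content where most genes were higher in replicate 2.

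E2F4, at 59.4% GC, had a log2 ratio of -0.31 with 2369 and 2365 counts (adjusted p = 2.90e-12 by the exact test). E2F1, at 61.6% GC, had a log2 ratio of -0.23 and E2F2, at 53.4%, one of -0.19 (adjusted p = 0.000217 and 0.00167 by the exact test). E2F3, at 45.1% GC, and E2F8, at 47.0%, were higher in replicate 2 by log2 ratios of 0.13 and 0.25 (adjusted p = 0.0207 and 0.0214 by the exact test). E2F5, at 40.5% GC, and E2F7, at 46.4%, had log2 ratios of 0.10 and 0.07 and did not pass (adjusted p = 0.259 and 0.376 by the exact test).

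**Figure D3:**
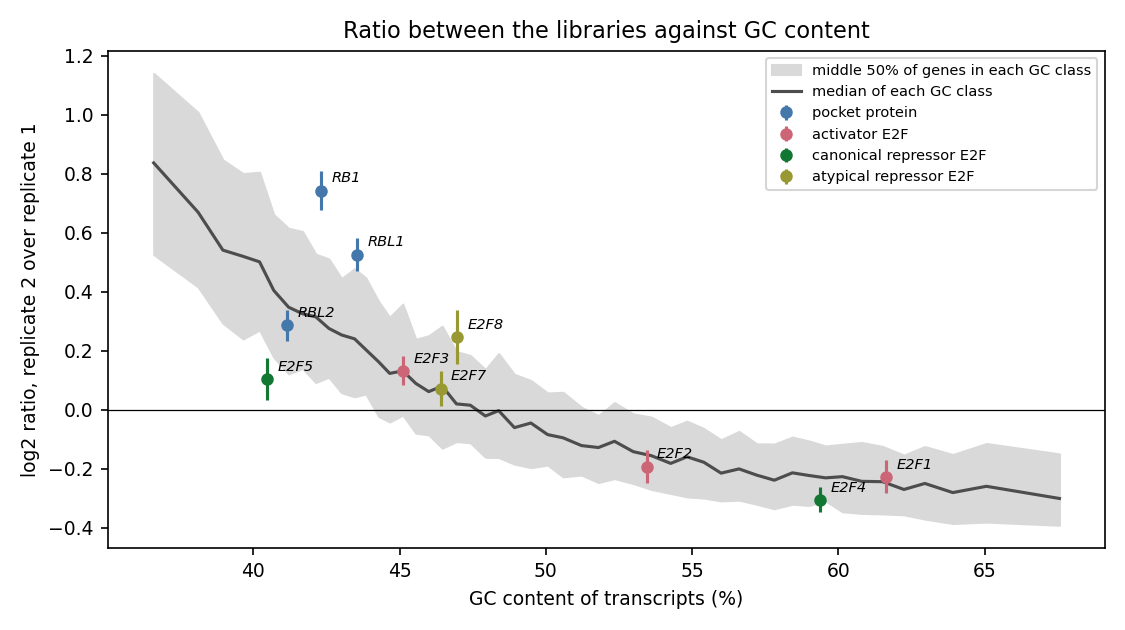
Log2 ratio of replicate 2 over replicate 1 against the GC content of the transcripts, in percent, for the 10 genes (points with counting SE), over the median and the middle 50% of all genes in 50 classes of GC content. RB1, RBL1 and E2F8 lie above the band and E2F5 below it, while RBL2, E2F1, E2F2, E2F3, E2F4 and E2F7 lie inside it.

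By their ratios, RBL2, E2F1, E2F2, E2F3, E2F4 and E2F7 lay inside the band of all genes, and RB1, RBL1, E2F5 and E2F8 outside it. The band holds the middle genes of each class of GC content, so lying inside it does not set a gene apart. Across all genes the ratio fell with GC content. After that trend was removed, 3 of the 10 genes passed the exact binomial test, beside 28.3% of 19048 genes and 49.3% of those with summed counts of at least 1000. RB1 was still higher in replicate 2, by 0.44 on the log2 scale (adjusted p = 9.31e-11 by the exact test), as was RBL1, by 0.29 (adjusted p = 2.19e-06 by the exact test). E2F5 was then lower in replicate 2, at -0.35 (adjusted p = 1.06e-05 by the exact test), since genes of its GC content, 40.5%, had a median of 0.45. The other 7 genes ranged from -0.08 for E2F4 to 0.23 for E2F8. The cause of the GC trend was not tested. A biological coefficient of variation of 0.1 was also assumed in place of counting error alone. By the edgeR exact test 1 of the 10 genes then passed, RB1 (adjusted p = 0.0117). Among all genes 7.24% passed, 1319 genes higher in replicate 2 and 108 higher in replicate 1.

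The other genes of the pathway were taken from a list of 58 names, of which 57 were matched, UHRF1 not. Of these, 56 were detected, and the median of their mean TPM was 57.2. The DP proteins form the dimers through which E2F factors bind DNA. TFDP1 was at 67.3 TPM in replicate 1 and 60.5 in replicate 2, TFDP2 at 77.4 and 86.0, and TFDP3 had a count of 0 in both. TFDP1 and TFDP2 thus lay between E2F5 and E2F4 in level in both libraries.

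The 7 genes of the MuvB core and its partners, which join p130 and E2F4 in the DREAM complex or B-Myb in dividing cells, ranged from MYBL2 at 252 and 210 TPM to LIN37 at 9.26 and 7.65. LIN37 had 108 and 165 counts, with posterior SDs of 14.1% and 11.8% of the count. Its given length was 686 bases in replicate 1 and 1087 in replicate 2, so its level is less certain. MYBL2 encodes B-Myb and is itself a known E2F target. Among the 7 corepressors that bind pocket proteins, RBBP7, a histone-binding subunit, was highest by its mean, at 367 and 369 TPM, although HDAC2, a histone deacetylase, was above it in replicate 2 at 392. KDM5A, a histone demethylase, was lowest by its mean, at 26.1 and 26.4 TPM. ARID4A, an RB-binding corepressor, was the only pathway gene with a log2 ratio of at least 1 between the libraries. With transcripts of 42.5% GC, it was at 16.4 TPM in replicate 1, below KDM5A, and 48.8 in replicate 2. Its log2 ratio was 1.48 before and 1.19 after removal of the GC trend. Before that removal, 3.66% of genes with summed counts of at least 100 had an absolute log2 ratio of at least 1.

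Of the 8 cyclins and kinases that phosphorylate pocket proteins, CDK4 was highest at 211 and 177 TPM and CCNE2, a cyclin E gene, lowest at 6.30 and 8.82. The 7 CDK inhibitor genes spanned the widest range. CDKN2A, which encodes the CDK4 and CDK6 inhibitor p16 and the p53 regulator ARF, was at 597 and 476 TPM, the highest level on the whole list. CDKN1C, which encodes p57, was lowest by its mean, at 3.38 and 3.64 TPM. Of the 3 genes of E2F turnover, FZR1, an activator of the anaphase-promoting complex, was highest by its mean, at 65.0 and 55.5 TPM. SKP2, an F-box protein, was above FZR1 in replicate 2 at 61.8. CCNF, also an F-box protein, was lowest at 37.4 and 33.8 TPM.

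All 22 matched E2F target genes were detected, with a median of their mean TPM of 96.6. MCM4, a subunit of the replicative helicase, was highest at 397 and 374 TPM, and POLA1, the catalytic subunit of DNA polymerase alpha, lowest by its mean, at 22.1 and 26.8, though CDK1 was below it in replicate 1 at 20.9 and ORC1 in replicate 2 at 23.9. By the exact binomial test, 16 of the 22 passed, 2 of them higher in replicate 2 and 14 higher in replicate 1, with a median log2 ratio of -0.12, beside the 42.5% of all genes and 72.3% of deeply counted genes given above. After removal of the GC trend 14 passed, 1 higher in replicate 2 and 13 higher in replicate 1, with a median of -0.16 beside 0.02 over all genes and the shares of 28.3% and 49.3% above. Over the whole list 40 of 56 tested genes (71.4%) passed, 13 higher in replicate 2 and 27 higher in replicate 1. After removal of the GC trend 31 of the 56 (55.4%) passed, 10 and 21 in the same order. Among all genes 14.3% then passed higher in replicate 2 and 14.0% higher in replicate 1. The share of 71.4% is near the 72.3% of deeply counted genes. With the assumed variation of 0.1 in the edgeR exact test, 6 genes of the list (10.7%) passed, beside 7.24% of all genes. All 6 were higher in replicate 2, as were 1319 of the 1427 genes that passed among all genes. The 2 E2F targets among the 6 were CDK1 and BRCA1, named after their values were seen.

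**Figure D4:**
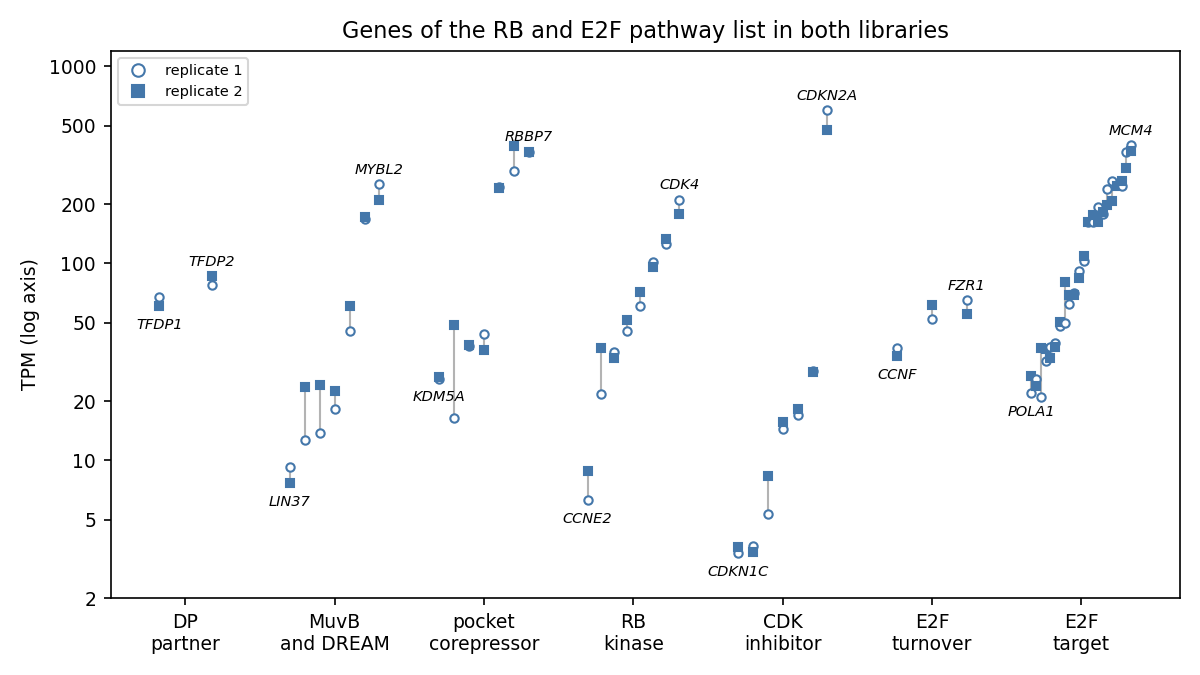
TPM on a log axis of the detected pathway genes in replicate 1 (open circles) and replicate 2 (filled squares), grouped by role and joined by a line for each gene, with the highest and lowest gene of each role by mean TPM named. CDKN2A stood highest at 597 and 476 TPM, and the longest line is that of ARID4A, at 16.4 and 48.8.

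The pathway genes nearest in level to a gene of each class were found by the distance of log2(TPM + 1) in the 2 libraries, which describes likeness of level and no more. Nearest to E2F4 was TYMS, thymidylate synthase, at a distance of 0.06, followed by TFDP2 and CCND3. Nearest to E2F1 were CDKN2C, at 0.07, KDM5A and ORC1. RB1 had no neighbour as close, since CDKN1A, LIN54 and CCNE2 stood at 0.72 to 0.81.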

How the data were processed

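Poly(A)+ RNA of 2 replicates of HEK293T cells, labelled as 1 heat-shock group, had been sequenced by the authors with 50 bp reads. The submitters' notes name Trimmomatic 0.36, STAR 2.6.1c and RSEM 1.3.1, whereas the methods name featureCounts, and the columns are those of RSEM. The expected counts deposited by the authors share multi-mapped reads among genes, the deposited TPM and FPKM are scaled per length by the authors, and credibility bounds and posterior SDs come with them. A deposited table of the whole series held the pooled values, whose counts equalled the sum of both libraries for all 10 genes within 0.5 read.

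Positions and transcripts, with their GC content, were read from GENCODE on GRCh37, the build of the authors but not their release. Of 57736 identifiers, 96.1% were matched. LHX1, NEFL, PECAM1 and UHRF1 were not matched.

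Expected counts were rounded. The exact two-sided binomial test doubled the smaller tail, with the library share from edgeR 4.0.16 TMM factors over genes with 10 or more counts in sum. Log2 ratios carry a pseudocount of 0.5. The GC trend was the median in 50 classes of genes with summed counts of at least 100, interpolated. The test and the trend were tested on simulated data with counting noise only. There the test called 95.0% of 200 genes changed 2-fold and 0.067% of unchanged genes. Biological variation between replicates was not simulated, so this does not show how the test behaves under it. SDs are over 2 libraries, p-values cover counting error between these libraries, and depths of 22529828 and 26890199 counts set that error. Python 3.11.15 and DESeq2 1.42.0 were also used.

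The 10 genes, the lists and the tests were chosen with earlier results of these data known. Named genes were, besides the 10, the highest and lowest of each role, those with an absolute log2 ratio of at least 1, the 3 nearest in level, and overlapping genes or genes sharing sequence, of which the highest by level are not reported here. LPAR6 was picked from the overlapping genes, and HDAC2, SKP2, CDK1, ORC1 and BRCA1 from the list, after their values were seen. Alternatives covered units, length, detection, scaling, count minimums, posterior means, pseudocount, the GC trend and an assumed variation.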

Additional observations from a re-analysis of the deposited data

How the results depend on the processing

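No paired analysis was possible because both libraries belong to 1 group. Leaving out a replicate leaves no comparison between libraries; for the shares it gives the values of the other library, 29.8% to 31.5% for activators among E2F genes, 36.8% to 38.8% for E2F1 among activators, 51.4% to 56.0% for E2F4 among repressors, and 16.6% to 20.4%, 26.5% to 28.5% and 51.1% to 56.9% for RB1, RBL1 and RBL2 among pocket proteins. With CPM, which is not per length, these shares were 47.4%, 29.8%, 48.3%, 26.7%, 34.3% and 39.0%. Per base of the longest listed transcript, chosen after seeing the data, they were 43.7%, 44.6%, 63.9%, 28.5%, 30.7% and 40.8%. Repressors over activators had a mean ratio of 1.11 in CPM and 1.29 per base of the longest transcript, and 2.17 to 2.36 in single libraries in TPM. Canonical over atypical repressors had 1.92 and 3.17, and 4.69 to 6.43. These ratio settings were also chosen after seeing the data.

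With the GC trend removed, 3 of the 10 genes and 5396 of all genes passed the threshold. Where a biological coefficient of variation of 0.1 was assumed the numbers were 1 and 1427, with 6 of the pathway genes. Each of the 6 was higher in replicate 2, as were 1319 of the 1427. DESeq2 size factors, scaling by totals, other count minimums and posterior mean counts left 8 of the 10 passing. Of 80 alternative values of the log2 ratios of the 10 genes, 65 kept direction and side of the threshold and 11 lost the threshold only. The 4 that reversed did so with the GC trend removed, to -0.067 for RBL2, 0.021 for E2F1, -0.35 for E2F5 and -0.0059 for E2F7. No calls gained the threshold in the same direction. The 2 libraries limit every SD, and depth did not limit detection of the 10 genes.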
